A study of Homo sapiens with 72 samples.

Results

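DU145 is an established prostate carcinoma cell line, and the libraries described here are the polyadenylated mRNA of DU145 cells that carried a LIN28A transgene, with and without mutations in the RNA uridyl transferases TUT4 and TUT7. The libraries were chosen by their labels alone: 12 of the 72 samples of the series are mRNA libraries of LIN28A-overexpressing DU145. They fall into 3 groups of 4 libraries, wild type, mutant_1 and mutant_2. Both mutant groups are double mutants in which Cas9 nickase was aimed at 1 exon of TUT4 and 1 exon of TUT7 lying upstream of the exon for the catalytic domain. All 3 groups carried LIN28A from a lentivirus under the CMV promoter, as a coding sequence without introns or the LIN28A 3′ UTR, and all had been selected with puromycin. Each mutant group is 1 clone and the wild type is 1 culture line, and the 4 replicates of a group are 4 consecutive passages. The p-values of fits that keep the clones apart therefore measure the spread between passages and libraries, which may be technical. Where both clones are joined in 1 mutant group, called the pooled test below, that spread also includes the differences between the clones. With 2 clones a property of a clone cannot be told apart from the loss of TUT4 and TUT7. The 12 LIN28A-negative DU145 libraries, with the same clone labels, and the 12 libraries of IGROV1, an ovarian carcinoma line that expresses its own LIN28A, served as the other arms of 2 tests of difference. Each of these sets also holds 4 wild-type, 4 mutant_1 and 4 mutant_2 libraries. The IGROV1 mutants are TUT4 and TUT7 double-mutant clones of IGROV1 and share only their labels with the DU145 clones.

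TUT4 and TUT7 add uridines to the 3′ ends of RNA. In cells with LIN28A, the protein binds the terminal loop of let-7 precursors and recruits these enzymes, and the oligouridine tail that follows blocks DICER1 and marks the precursor for decay by DIS3L2. Without LIN28A, the same enzymes add single uridines, and they also tail poly(A)-shortened mRNA that is then degraded. Mature let-7 represses a set of growth and embryonic genes such as HMGA2, the IGF2BP family and LIN28A itself, so the mRNA of these genes is a downstream readout of the pathway.

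The depth was 9867217 to 19402406 counts assigned to genes per library, over 26485 genes, of which 14666 had enough counts to be tested. The first 3 principal components of log2 CPM, where CPM is the count of a gene scaled to the effective size of its library, held 53%, 22.2% and 11.6% of the variance. One library stood apart from its group: wild-type replicate 1 lay at -14.8 on the first component against 14.6 to 22 for the other wild-type libraries. Its summed level of 44 S-phase and mitosis genes (summed levels are scaled over the 24 DU145 libraries) was 10128 CPM, against 1564 to 2151 in wild-type replicates 2 to 4, 3944 to 10427 in mutant_1 and 3210 to 4854 in mutant_2. Wild-type replicates 2 to 4 thus lay below all mutant libraries, while replicate 1 lay within the range of mutant_1 and above mutant_2. The part of this level in the results was not tested. List counts are given with and without this library where they differ. The cell type markers were those of an epithelial carcinoma line. KRT8 stood at 622 to 1505 CPM and CDH1 at 89.4 to 197 CPM, VIM at 486 to 1198 CPM, and KLK3, prostate-specific antigen, at no more than 1 count in any library, so this prostate luminal marker is absent here. PTPRC, DCN, LUM, CD3E and WT1, markers of blood, stroma and ovary, had at most 2 counts in any of the 12 libraries. Other markers of those lists had more: LYZ at most 7 counts, VWF at most 8 and COL3A1 at most 49. The ovarian markers PAX8 and MUC16 had 3 to 40 and 49 to 3356 counts.

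The targeted genes were examined first. TUT4 (chr1:52408282-52553487, GRCh38, minus strand) stood at 55.9, 66.2, 76.6 and 77.2 CPM in wild-type replicates 1 to 4. It was 16.7, 18, 24.3 and 21.8 CPM in mutant_1 and 55.8, 55.3, 60.3 and 56 CPM in mutant_2. All mutant_1 libraries were far below the wild type, whereas the mutant_2 values overlapped the lowest wild-type library. TUT4 mRNA was lower in mutant_1 than in wild type (log2 fold change -1.77, SE 0.14, adjusted p = 1.25e-06), and in mutant_2 the change was -0.27 (SE 0.13, adjusted p = 0.13). The clones differed from each other in TUT4 by -1.5 on the log2 scale (adjusted p = 1.85e-06). Over the 8 mutant libraries together the change was -0.83 (SE 0.36, adjusted p = 0.167). A mutation within an exon need not lower the mRNA, so a kept TUT4 mRNA level does not show a functional enzyme.

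TUT7 (chr9:86287733-86354454, minus strand) was lower in both clones. The wild-type libraries stood at 55.4, 78.6, 61.8 and 64.4 CPM, mutant_1 at 23.1, 21.3, 27.4 and 23.1 CPM and mutant_2 at 31.8, 38.6, 27.8 and 36.4 CPM. Every mutant library lay below every wild-type library. The pooled change was -1.18 on the log2 scale (SE 0.17, adjusted p = 0.00109), with -1.46 in mutant_1 and -0.94 in mutant_2.

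The transgene itself differed between the groups. LIN28A counts (gene at chr1:26410817-26429728) gave 76.1, 72.2, 77.7 and 65.5 CPM in the wild type, 427, 334, 402 and 389 CPM in mutant_1 and 214, 302, 224 and 237 CPM in mutant_2. The groups did not overlap, and mutant_1 was also above mutant_2 in every library. LIN28A mRNA was higher in the mutants by 2.12 on the log2 scale (SE 0.21, adjusted p = 1.49e-04), by 2.41 in mutant_1 and 1.75 in mutant_2. In the LIN28A-negative DU145 libraries LIN28A had 0 to 5 counts, and its paralog LIN28B had at most 3 counts in the 12 overexpressing libraries. A comparison of mutant with wild type here is therefore also a comparison of high with lower LIN28A mRNA, and the mutation and the transgene dose cannot be told apart within these 12 libraries.

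**Figure D1:**
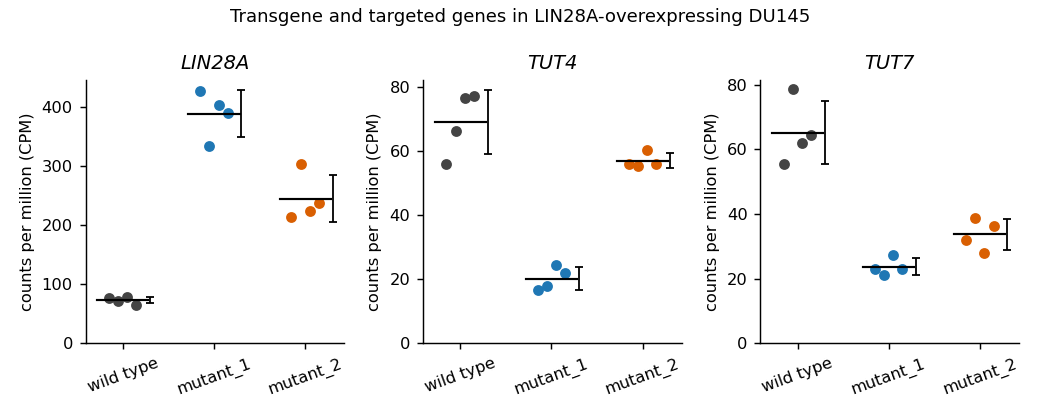
Levels of the LIN28A transgene and of TUT4 and TUT7 (CPM, linear axes from 0) in the 4 libraries of each group, with the mean as a line and the SD as an error bar. LIN28A does not overlap between the 3 groups, TUT7 is lower in both clones, and TUT4 is far lower in mutant_1 only, while mutant_2 reaches the lowest wild-type library.

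Across the transcriptome, 178 genes were higher (1.21% of the genes tested) and 367 were lower (2.5%) in the 8 mutant libraries than in the 4 wild-type libraries, by edgeR's quasi-likelihood test at an adjusted p under 0.01. Of these, 97 were higher and 123 lower by at least 1 log2 unit, and the median log2 fold change over all genes tested was 0.03. In 177 of the higher genes and 346 of the lower genes the 8 mutant values lay wholly outside the wild-type range. Over all tested genes, called or not, the 8 mutants lay above every wild-type library in 3.81% and below every one in 5.62%. The counts depended on the wild-type libraries. They were 227 higher and 441 lower without wild-type replicate 1, but 67 and 153 without replicate 2, 70 and 152 without replicate 3, and 83 and 189 without replicate 4.

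The clones differed strongly from each other. Each clone on its own gave far more calls than the pooled test: 1719 genes higher (11.7%) and 2092 lower (14.3%) in mutant_1, and 1486 higher (10.1%) and 1730 lower (11.8%) in mutant_2. Tested against each other, mutant_1 was higher than mutant_2 in 2846 genes and lower in 2935. A gene on which the clones differ inflates the spread within the 8 mutants, so a gene with opposite changes in the clones can hardly pass the pooled test. That 0 of the 545 pooled calls had opposite signs in the clones follows from this and is no result. In 108 of the 545 the clones still differed from each other at an adjusted p under 0.01 by edgeR's quasi-likelihood test.

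BCHE, which encodes butyrylcholinesterase, and MUC16, the CA125 mucin, are examples of such clone differences, and BCHE was chosen by its difference from IGROV1 and MUC16 from the ovarian marker list. BCHE had 2782 to 4916 counts in the wild-type libraries and 2034 to 3140 in mutant_2, but 0 to 2 counts in mutant_1. MUC16 stood at 79.1, 46.4, 59.8 and 83.2 CPM in wild type, 3.11, 4.76, 5.18 and 4.67 CPM in mutant_1 and 162, 116, 129 and 133 CPM in mutant_2. It was lower in mutant_1 (-3.92 on the log2 scale, adjusted p = 8.46e-08) and higher in mutant_2 (1.02, adjusted p = 0.00104), while the pooled change was 0.06 (adjusted p = 0.978).

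Beside the LIN28A transgene, the 12 largest increases with no overlap between groups included a pair of neighbouring genes on chromosome 3. FOXL2 (chr3:138944224-138947137, minus strand), a forkhead transcription factor of ovarian granulosa cells, stood at 0.237, 1.55, 0.993 and 1.23 CPM in the wild type, 17.4, 16.7, 17 and 18.3 CPM in mutant_1 and 6.17, 12.2, 8.45 and 8.43 CPM in mutant_2. It was close to silent in the wild type and every mutant library was above every wild-type library (log2 fold change 3.72, SE 0.48, adjusted p = 5.75e-04). FOXL2NB (chr3:138947217-138953990, plus strand), whose gene starts next to that of FOXL2 on the other strand, moved with it: 1.3, 1.74, 1.15 and 2.77 CPM in wild type, 14.4, 14.2, 24.4 and 21.1 CPM in mutant_1 and 9.3, 10.6, 11.9 and 11.9 CPM in mutant_2. Its groups did not overlap either (log2 fold change 3.1, SE 0.35, adjusted p = 2.61e-04).

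Among signalling ligands, RSPO3, an R-spondin that amplifies Wnt signalling, stood at 1.95, 5.15, 3.89 and 3.79 CPM in wild type, 30.6, 26.6, 48 and 62.4 CPM in mutant_1 and 22.6, 29.9, 17.8 and 18.9 CPM in mutant_2. The groups did not overlap (log2 fold change 3.12, SE 0.41, adjusted p = 6.47e-04). ADM, the vasodilator peptide adrenomedullin, was at 2.15 to 6.27 CPM in wild type, 68 to 78.9 CPM in mutant_1 and 12.3 to 28 CPM in mutant_2 (log2 fold change 3.55, SE 0.60, adjusted p = 0.00295). The ADM call was lost without wild-type replicate 3 or 4 (highest adjusted p 0.0159), and the clones differed by 1.8. BMPER, a secreted regulator of bone morphogenetic proteins, was higher by 2.55 (SE 0.4, adjusted p = 0.00187), a call lost without wild-type replicate 2 (adjusted p 0.0115).

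NRCAM, FSTL1 and FBN1 were also among the 12. NRCAM, a neuronal adhesion molecule, stood at 0.414, 0.993, 1.15 and 2.05 CPM in wild type, 4.95, 4.76, 6.97 and 6.77 CPM in mutant_1 and 11.1, 11.6, 12.6 and 12.6 CPM in mutant_2. It was higher in mutant_2 than in mutant_1, and both clones were above the wild type (log2 fold change 3.0, SE 0.45, adjusted p = 0.00145). FSTL1, a secreted follistatin-like glycoprotein, was at 19.4 to 26.6 CPM in wild type, 170.3 to 201 CPM in mutant_1 and 54.5 to 65.9 CPM in mutant_2 (log2 fold change 2.44, SE 0.45, adjusted p = 0.00476). FBN1, the fibrillin of elastic microfibrils, was at 4.91 to 18.4, 51.2 to 73.8 and 22.7 to 33.6 CPM (log2 fold change 2.09, SE 0.44, adjusted p = 0.00999). The FSTL1 call was lost without any 1 of the wild-type libraries (adjusted p up to 0.0229), and FBN1, which sat at the threshold, kept its call only without mutant_2 replicate 3 (adjusted p up to 0.0404).

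DZIP1, a zinc finger protein of the ciliary basal body, and DAW1, a factor for assembly of axonemal dynein, were also higher. DZIP1 (chr13:95578202-95644706, minus strand) was at 1.36, 1.43, 1.22 and 1.44 CPM in wild type, 5.71, 6.64, 6.84 and 7.92 CPM in mutant_1 and 7.42, 7.91, 10.3 and 7.58 CPM in mutant_2. The wild-type libraries were nearly alike and the clones overlapped each other but not the wild type (log2 fold change 2.47, SE 0.19, adjusted p = 1.79e-05). DAW1 rose by 2.39 (SE 0.32, adjusted p = 7.49e-04), and INPP4B, a phosphatase of inositol phospholipids, by 1.97 (SE 0.31, adjusted p = 0.00215). The call of INPP4B was lost without wild-type replicate 2, 3 or 4 (adjusted p up to 0.0115).

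The largest decreases included the phospholipid flippase ATP8A1 and CD74, the invariant chain that chaperones MHC class II molecules. ATP8A1 (chr4:42408373-42657121, minus strand) stood at 4.08, 10.4, 27.9 and 13 CPM in the wild type, 0.254, 0.377, 1.17 and 0.135 CPM in mutant_1 and 0.675, 0.866, 0.698 and 1.03 CPM in mutant_2. The wild-type libraries varied widely but all lay above every mutant library (log2 fold change -4.39, SE 0.51, adjusted p = 3.07e-04). CD74 (chr5:150401637-150412969, minus strand) was at 8.93, 14.3, 18.4 and 15.9 CPM in wild type, 1.21, 1.13, 2.71 and 1.29 CPM in mutant_1 and 0.819, 0.52, 0.768 and 0.655 CPM in mutant_2. It was lower in each of the 8 mutant libraries (log2 fold change -3.64, SE 0.36, adjusted p = 1.28e-04).

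The most even decreases, alike in both clones, were those of CHD5 and DKK3. CHD5 (chr1:6101787-6180321, minus strand), a chromatin remodeller, stood at 14.3, 16.1, 11.8 and 12.8 CPM in wild type, 3.05, 1.89, 2.28 and 2.64 CPM in mutant_1 and 2.41, 2.71, 2.58 and 2.06 CPM in mutant_2. DKK3 (chr11:11956207-12009769, minus strand), a secreted member of the dickkopf family, was at 21.7, 19.1, 18.2 and 20.4 CPM in wild type, 4.64, 4.68, 4.25 and 3.32 CPM in mutant_1 and 4.39, 3.35, 4.4 and 4.12 CPM in mutant_2. For both genes the 2 clones overlapped each other and not the wild type. CHD5 fell by 2.48 on the log2 scale (SE 0.15, adjusted p = 3.16e-06) and DKK3 by 2.26 (SE 0.13, adjusted p = 2.69e-06).

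EDIL3, LMO7 and SERPINA1 were also among the 12 largest decreases. EDIL3, a secreted integrin ligand, was at 677 to 1367 CPM in wild type and 152 to 415 CPM over the 8 mutant libraries (log2 fold change -2.14, SE 0.28, adjusted p = 6.41e-04). LMO7, a LIM domain protein of cell junctions, was at 348 to 419 CPM against 70.2 to 126 CPM (log2 fold change -2.01, SE 0.16, adjusted p = 2.39e-05). SERPINA1, alpha-1 antitrypsin, was at 33.8 to 40.4 CPM against 6.11 to 11.3 CPM (log2 fold change -2.08, SE 0.16, adjusted p = 2.24e-05). None of these groups overlapped. RLTPR, a regulator of actin capping protein, was lower by -1.96 (adjusted p = 3.21e-05) and FAM167A by -2.24 (adjusted p = 4.31e-04). MTUS1, a microtubule-associated protein (-2.16), F13A1, a subunit of coagulation factor XIII (-2.09), and the noncoding RNA LINC00667 (-2.83) were lower too, but each lost its call without wild-type replicate 2, 3 or 4, F13A1 also without mutant_1 replicate 3 or 4 or mutant_2 replicate 1 (adjusted p up to 0.0149 for MTUS1, 0.0298 for F13A1 and 0.0112 for LINC00667).

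**Figure D2:**
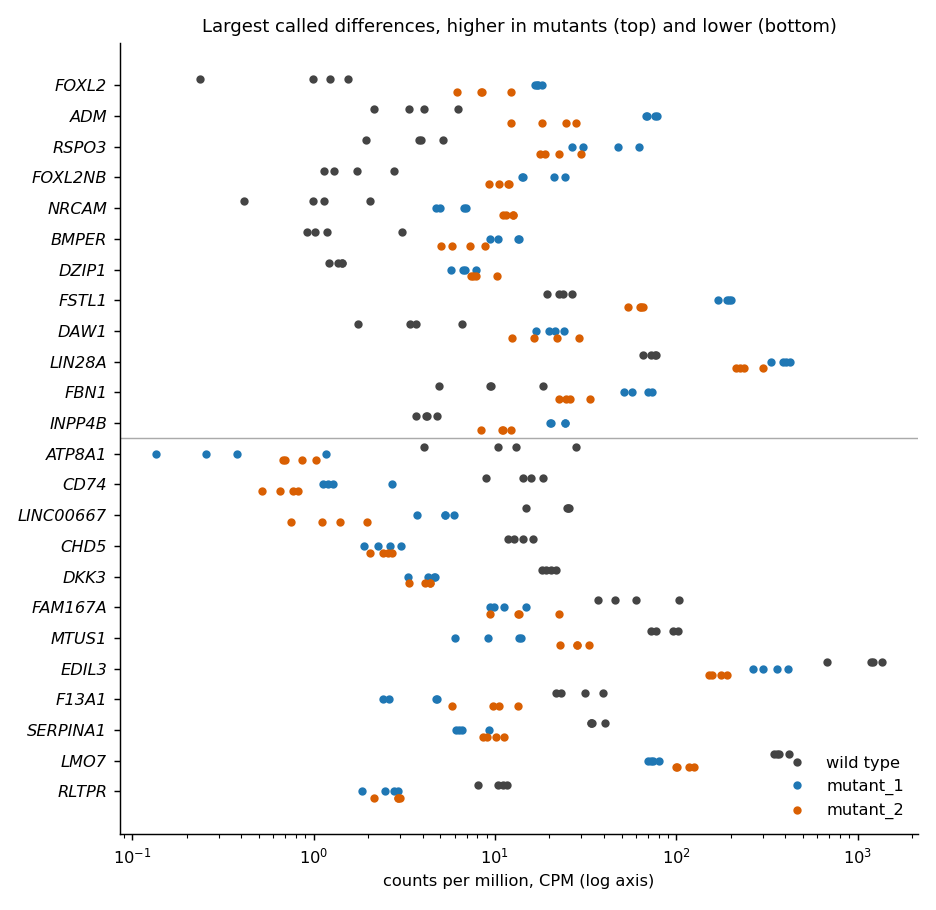
CPM (log axis) of the 12 genes with the largest increases and the 12 with the largest decreases in the mutants, 1 point per library, coloured by group. In all 24 genes the 8 mutant points lie on 1 side of the 4 wild-type points, while the order of the clones varies from gene to gene.

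Few genes of the machinery for RNA tailing, miRNA processing and decay passed the pooled test. Pooled counts in the lists below stand against 1.21% higher and 2.5% lower of all genes tested. Counts in single clones stand against 11.7% higher and 14.3% lower in mutant_1, and 10.1% and 11.8% in mutant_2. Of 8 other terminal nucleotidyltransferases tested, 0 were higher and 1 was lower, with a median change of -0.12 against 0.03 over all genes. The gene was TENT4B, a noncanonical poly(A) polymerase, at 79.6 to 102 CPM in wild type and 54.5 to 79.9 CPM in the mutants, so that the groups overlapped at 1 mutant library (log2 fold change -0.54, SE 0.11, adjusted p = 0.00753). The TENT4B call was lost without any 1 of 10 libraries, all but wild-type replicate 1 and mutant_2 replicate 2 (adjusted p up to 0.038).

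Of 25 genes of miRNA processing, 1 was higher and 1 was lower. DICER1 (chr14:95086228-95158010, minus strand), the nuclease that cuts precursor hairpins to mature miRNA, stood at 283, 278, 275 and 287 CPM in the wild type, 149, 176, 150.2 and 141 CPM in mutant_1 and 176, 187, 182 and 169 CPM in mutant_2. The groups were widely separated and the call held in all 12 fits that left out 1 library (log2 fold change -0.75, SE 0.09, adjusted p = 4.38e-04). DICER1 lies in a region of chromosome 14 whose genes were lower together, described further on. PRKRA, a double-stranded RNA binding partner of DICER1, was higher by 0.45 (SE 0.08, adjusted p = 0.00557), a call lost in 9 of the 12 fits that left out 1 library, among them those without wild-type replicate 2, 3 or 4 (adjusted p up to 0.0328). DROSHA, which cuts primary transcripts, changed by 0.13 (adjusted p = 0.58).

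Of 39 genes that decay uridylated RNA, 0 were higher and 2 were lower (5.13%, against 2.5% of all genes). These were PABPC4, a cytoplasmic poly(A) binding protein (-0.46, SE 0.08, adjusted p = 0.00282), and EDC3, an enhancer of decapping (-0.63, SE 0.11, adjusted p = 0.00448). PABPC4 lost its call without wild-type replicate 2 or 3, and EDC3 without any wild-type library or mutant_1 replicate 3 or 4 (adjusted p up to 0.0179 and 0.0247). DIS3L2, the exonuclease for uridylated precursors of let-7, changed by 0.02 (SE 0.15, adjusted p = 0.951).

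The targets of let-7 were read against the sequence of the miRNA, since LIN28A and TUT4/7 act on its precursor. The members of the family are shown because they share the seed, bases 2 to 8 from the 5′ end, printed in capitals, that pairs with a target mRNA. The sequences are those of RefSeq, and 11 mature names in the table hold this seed.
hsa-let-7a-5p: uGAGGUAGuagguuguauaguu
hsa-let-7b-5p: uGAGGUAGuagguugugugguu
hsa-let-7i-5p: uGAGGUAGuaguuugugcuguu
hsa-miR-98-5p: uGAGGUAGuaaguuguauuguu

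HMGA2, a chromatin protein of embryonic and tumour cells and a well known let-7 target, holds 4 matches to the seed in its 3′ UTR of 2999 bases (chromosome 12, GRCh38, plus strand). The matches are shown in capitals within 30 bases each, because HMGA2 mRNA differed between mutants and wild type here and in the test with LIN28A described further on.
HMGA2 site 1, chr12:65963299-65963328: ccaacgttcgatttCTACCTCagcagcagt
HMGA2 site 2, chr12:65964534-65964563: cccactactcaataCTACCTCtgaatgtta
HMGA2 site 3, chr12:65964946-65964975: tgacttgcaaagacCTACCTCcagacttca
HMGA2 site 4, chr12:65965799-65965828: atcaaaacacactaCTACCTCttaagtccc

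HMGA2 stood at 7.51, 5.28, 3.36 and 5.44 CPM in the wild type, 0.889, 0.755, 1.36 and 0.406 CPM in mutant_1 and 1.83, 2.25, 2.23 and 1.22 CPM in mutant_2. Every mutant library was below every wild-type library, and mutant_1 was lower than mutant_2 in all but 1 pair of values. HMGA2 mRNA fell by 1.96 on the log2 scale (SE 0.38, adjusted p = 0.00618), with -2.64 in mutant_1 and -1.49 in mutant_2. The pooled call was lost without any 1 of the wild-type libraries, mutant_1 replicates 1 to 3 or mutant_2 replicate 4 (adjusted p up to 0.0231).

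Of 37 let-7 target genes tested, 1 was higher and 3 were lower in the pooled test. These made up 10.8% of the list, against 1.21% higher and 2.5% lower of all genes. The median change was -0.08 against 0.03 over all genes. Without wild-type replicate 1 the counts were also 1 and 3. The lower genes were HMGA2, DICER1 and ARID3B, a DNA-binding protein of the ARID family, which stood at 11.8 to 21.1 CPM in wild type and 4.62 to 8.29 CPM in the mutants (log2 fold change -1.28, SE 0.19, adjusted p = 0.00128). The higher gene was IGF2BP1, an mRNA-binding protein that stabilises oncofetal transcripts and holds at least 3 seed matches. IGF2BP1 (chr17:48997385-49056145, plus strand) stood at 10, 8.32, 7.79 and 8 CPM in wild type, 18.1, 19, 19.1 and 21.5 CPM in mutant_1 and 30.7, 27.1, 29 and 25.1 CPM in mutant_2. The groups did not overlap and it moved opposite to HMGA2 (log2 fold change 1.48, SE 0.18, adjusted p = 3.45e-04). Its paralogs did not pass the test: IGF2BP2 changed by -0.25 (adjusted p = 0.0406) and IGF2BP3 by 0.08 (adjusted p = 0.924), lower in mutant_1 (-0.82) and higher in mutant_2 (0.63).

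Over all genes, the letters CTACCTC, the match to the let-7 seed on the mRNA strand only, were found in 11.1% of the 12603 3′ UTRs that could be matched to a tested gene. The 1402 genes with at least 1 match had a median change of -0.02, with 17 higher (1.21%) and 44 lower (3.14%). The 11201 genes without a match had a median of 0.03, with 1.32% higher and 2.58% lower. Other seeds gave like shares of lower genes. With and without a match these were 3.83% and 2.37% for miR-200c-3p, 3.71% and 2.53% for miR-21-5p and 3.22% and 2.49% for miR-141-3p. They were 3.10% and 2.54% for miR-30a-5p, and 2.56% and 2.66%, the other way, for miR-103a-3p. The let-7 shares in the pooled test are thus not particular to its seed. The 30 genes with at least 3 let-7 matches had a median of -0.14, with 2 higher (IGF2BP1 and PTAFR) and 2 lower (HMGA2 and ZNF512B). Their median was -0.22 in mutant_1 and -0.20 in mutant_2. In the LIN28A-negative mutants the 29 tested genes with at least 3 let-7 matches had a median of -0.13. These 30 genes have long 3′ UTRs, with a median of 6328 bases against 1176 bases in genes with no match, and a match is a description of letters, not of a site in use.

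Genes of the interferon response are often watched when RNA decay is lost, because they are induced by unprocessed RNA. Of 44 interferon-stimulated genes tested, 0 were higher and 1 was lower by edgeR's quasi-likelihood test, with 9 higher and 4 lower at an unadjusted p under 0.05 and 2 higher and 1 lower by DESeq2. Of all genes tested, 12.6% were higher and 13.5% lower at an unadjusted p under 0.05, and 4.06% and 5.65% by DESeq2, and counts by these rules in the other lists stand against the same shares. The median change was 0.17, made up of 0.44 in mutant_1 and -0.20 in mutant_2. In mutant_1 14 genes were higher and 3 lower, and in mutant_2 2 were higher and 10 lower. The lower gene was DHX58, a cytosolic helicase of the RIG-I family, at 4.61, 4.22, 6.26 and 3.59 CPM in wild type, 1.21, 0.453, 0.493 and 0.406 CPM in mutant_1 and 1.98, 1.5, 1.26 and 0.749 CPM in mutant_2. Its groups did not overlap (log2 fold change -2.18, SE 0.38, adjusted p = 0.00376), and the call was lost without wild-type replicate 2 or 3 (adjusted p up to 0.021).

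Genes of antigen presentation gave unlike counts in the clones as well. Of 21 tested, 0 were higher and 1 was lower in the pooled test, that gene being CD74, with 9 higher and 1 lower at an unadjusted p under 0.05 and 3 higher and 1 lower by DESeq2. In mutant_1 14 were higher and 1 lower with a median of 0.93, and in mutant_2 2 were higher and 6 lower with a median of -0.10. Of 23 cytokine and NF-kB response genes, 0 passed the edgeR test, with 0 higher and 6 lower at an unadjusted p under 0.05 and 0 and 1 by DESeq2. CSF1, a macrophage growth factor, was the member named by rule, with a pooled change of -0.79 (adjusted p = 0.096).

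Collagen genes form the matrix around cells. Of 24 collagen genes, 3 were higher (12.5%, against 1.21% of all genes) and 0 lower, with a median change of 0.72. COL5A2, a chain of fibrillar collagen V, stood at 6.74, 4.97, 3.89 and 4.2 CPM in wild type, 13.1, 11.5, 11 and 14.3 CPM in mutant_1 and 14.2, 15.4, 13.8 and 14.5 CPM in mutant_2. The clones overlapped each other and neither overlapped the wild type (log2 fold change 1.44, SE 0.17, adjusted p = 3.24e-04). COL18A1, a basement membrane collagen, was higher by 0.92 (adjusted p = 0.00269), and COL3A1 by 3.21 (adjusted p = 0.00959) from a level of 0.0764 to 0.237 CPM in wild type, under 1 CPM, to 0.468 to 3.32 CPM in the mutants. Without wild-type replicate 1 the count was 2, COL3A1 having lost its call (adjusted p 0.0138), as it did without 9 libraries in all. The median of the list was 0.69 in mutant_1 and -0.13 in mutant_2. In a fit of all 24 DU145 libraries its median mutant effect was 0.40 in the overexpressing and 0.45 in the LIN28A-negative lines.

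Of 25 mesenchymal genes and regulators of the epithelial-mesenchymal transition, 3 were higher (12%, against 1.21% of all genes) and 0 lower. The median change was 0.44, of 0.48 in mutant_1 and of -0.05 in mutant_2. The summed level was 2715 to 4082 CPM in wild type, 4990 to 6131 CPM in mutant_1 and 2167 to 2816 CPM in mutant_2, so that mutant_1 lay above the wild type and mutant_2 at or below its lower end. The called genes were PDGFRB, the platelet-derived growth factor receptor beta, FSTL1 and FBN1. PDGFRB stood at 0.186 to 0.414 CPM in wild type, 2.79 to 3.25 CPM in mutant_1 and 0.838 to 1.11 CPM in mutant_2 (log2 fold change 2.69, SE 0.54, adjusted p = 0.00778). Without wild-type replicate 1 the count was 0, with adjusted p values of 0.013 for PDGFRB, 0.0117 for FSTL1 and 0.0193 for FBN1, and the PDGFRB call was also lost without any other wild-type or mutant_1 library (adjusted p up to 0.0355). COL3A1 and PDGFRB are also on the list of fibroblast, blood and endothelial markers, of which 6 of 12 were tested and 2 were higher. The summed level of that list was 10.1 to 16.7 CPM in wild type, 26.3 to 33.1 CPM in mutant_1 and 16.6 to 25.4 CPM in mutant_2. Of its untested members, DCN, LUM, PTPRC and CD3E had at most 2 counts in any library, LYZ at most 7 and VWF at most 8.

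Of 31 epithelial junction and keratin genes, 0 were higher and 1 was lower in the pooled test (3.23%, near the 2.5% of all genes). The median change was -0.13, of -0.41 in mutant_1 and of -0.18 in mutant_2. The gene was DSC2, a desmosomal cadherin, at 39.6 to 45.9 CPM in wild type, 12.3 to 16.4 CPM in mutant_1 and 23.1 to 25.3 CPM in mutant_2 (log2 fold change -1.1, SE 0.19, adjusted p = 0.00369). It lost its call without wild-type replicate 2, 3 or 4 (adjusted p up to 0.0177). At an unadjusted p under 0.05, 4 genes of this list were higher (12.9%, against 12.6% of all genes) and 13 lower (41.9%, against 13.5%). DESeq2 called 1 higher and 7 lower (of all genes, 4.06% and 5.65%). All 8 mutant libraries lay below all 4 wild-type libraries in 16.1% of the list (of all genes, 5.62%), and above in 0% (3.81%). Of 24 proteases and inhibitors of the matrix, 0 passed the edgeR test, against 6 higher and 3 lower at an unadjusted p under 0.05 and 1 and 1 by DESeq2. TIMP2, the metalloproteinase inhibitor named by rule, was higher in mutant_1 (0.62) and lower in mutant_2 (-0.6).

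Of the metabolic lists, cholesterol synthesis held the lower genes. Of 24 genes tested, 0 were higher and 4 were lower (16.7%, against 2.5% of all genes), with a median change of -0.47, of -0.62 in mutant_1 and of -0.33 in mutant_2. In a fit of all 24 DU145 libraries the median mutant effect was -0.49 in the overexpressing and -0.51 in the LIN28A-negative lines. In 8 of the 24 genes (33.3%, against 5.62% of all genes) every mutant library lay below every wild-type library. CYP51A1 (chr7:92084987-92134803, minus strand), which removes a methyl group from lanosterol, stood at 162, 179, 192 and 226 CPM in wild type, 90.8, 90.6, 82.9 and 83.6 CPM in mutant_1 and 76.9, 89.8, 81.2 and 85.7 CPM in mutant_2. LSS (chr21:46188141-46228824, minus strand), which makes lanosterol, stood at 144, 189.8, 187 and 192 CPM in wild type, 58.3, 55, 50.5 and 57.1 CPM in mutant_1 and 74.9, 95.6, 83.6 and 83.6 CPM in mutant_2. Neither gene overlapped between mutant and wild type (CYP51A1 log2 fold change -1.15, SE 0.09, adjusted p = 2.39e-05, and LSS log2 fold change -1.35, SE 0.17, adjusted p = 5.75e-04). FDPS, which makes farnesyl diphosphate (-0.55), and STARD4, a sterol carrier (-0.73), also fell (adjusted p = 0.00419 and 0.00814). Without wild-type replicate 1, 3 genes were lower and FDPS was not (adjusted p 0.0109). CYP51A1 and LSS lie in the blocks of chromosomes 7 and 21 described further on.

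Proteins that fold or sort others in the endoplasmic reticulum were among the lower genes. Of 28 genes of amino acid and unfolded protein stress, 1 was higher and 5 were lower. These made up 21.4% of the list, against 1.21% higher and 2.5% lower of all genes. The median change was 0.01, of -0.31 in mutant_1 and of 0.22 in mutant_2. The summed level was 5808 CPM in wild-type replicate 1, against 9745 to 12714 CPM in replicates 2 to 4, 6866 to 9201 CPM in mutant_1 and 10609 to 11559 CPM in mutant_2. PDIA4, a disulfide isomerase, stood at 399, 622, 678 and 694 CPM in wild type, 226, 233, 217 and 198 CPM in mutant_1 and 272, 257, 271 and 282 CPM in mutant_2. No mutant value reached the lowest wild-type value (log2 fold change -1.29, SE 0.15, adjusted p = 2.99e-04), and PDIA4 lies in the block of chromosome 7 described further on. HSP90B1, the glucose-regulated chaperone GRP94, was at 912 to 2496 CPM in wild type and 594 to 1005 CPM in the mutants, where the groups overlapped at wild-type replicate 1 (log2 fold change -1.26, SE 0.23, adjusted p = 0.00467). The HSP90B1 call was lost without wild-type replicate 2, 3 or 4 or mutant_1 replicate 3 or 4 (adjusted p up to 0.0256). CRELD2, MANF and SDF2L1, further proteins of the endoplasmic reticulum, changed by -1.03, -0.89 and -0.7 (adjusted p = 0.00617, 0.00956 and 0.00744). The gene that rose was STC2, the secreted glycoprotein stanniocalcin 2 (log2 fold change 1.13, SE 0.23, adjusted p = 0.00799), a call lost in 9 of the 12 fits that left out 1 library, among them those without wild-type replicate 2 or 3 (adjusted p up to 0.0288).

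Of 29 genes of glycolysis and hypoxia, 2 were higher and 0 lower, ADM and EGLN3, a prolyl hydroxylase of the hypoxia-inducible factors. EGLN3 stood at 11.9, 12.7, 9.32 and 11.2 CPM in wild type, 44.6, 44, 48.5 and 57.1 CPM in mutant_1 and 29.3, 30.7, 35.1 and 39 CPM in mutant_2. The 3 groups were separate (log2 fold change 1.86, SE 0.19, adjusted p = 1.53e-04). The median of the list was 0.08, of 0.09 in mutant_1 and of -0.27 in mutant_2. Its summed level was 14812 to 22841 CPM in wild type, 16731 to 22409 CPM in mutant_1 and 12647 to 14556 CPM in mutant_2, so that mutant_2 lay below every wild-type library and mutant_1 within their range.

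Of 77 cytoplasmic ribosomal protein genes, 0 were higher and 4 were lower (5.19%, against 2.5% of all genes). The median change was -0.33, of -0.28 in mutant_1 and of -0.41 in mutant_2. In a fit of all 24 DU145 libraries the median mutant effect was -0.34 in the overexpressing and -0.31 in the LIN28A-negative lines. At an unadjusted p under 0.05, 0 were higher (against 12.6% of all genes) and 47 lower (61%, against 13.5%). DESeq2 called 0 higher and 17 lower (of all genes, 4.06% and 5.65%). Wild-type replicate 1 lay low among its group here as well, and without it 11 genes were lower. RPS21 was at 407 to 546 CPM in wild type and 248 to 318 CPM in the mutants (log2 fold change -0.65, SE 0.10, adjusted p = 0.00213), RPS25 changed by -0.64 (adjusted p = 0.00655), RPL5 by -0.51 (adjusted p = 0.0096) and RPL35A by -0.54 (adjusted p = 0.00972). RPS21 lost its call without wild-type replicate 2 or 3, and RPS25 without wild-type replicates 2 to 4, any mutant_1 library or mutant_2 replicate 1 (adjusted p up to 0.0119 and 0.0359). Ribosomal protein genes have many processed pseudogenes, so the counting may divide their reads.

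Of 44 S-phase and mitosis genes, 0 passed the edgeR test, with 6 higher (13.6%, near the 12.6% of all genes) and 0 lower at an unadjusted p under 0.05 and 0 and 0 by DESeq2. The median change was 0.58, of 0.91 in mutant_1 and of 0.01 in mutant_2, and without wild-type replicate 1 2 genes were higher. TOP2A, the topoisomerase of dividing cells, shows the spread: 1044, 239, 176 and 247 CPM in wild type, 1115, 1225, 399 and 570.3 CPM in mutant_1 and 616, 359, 369.5 and 423 CPM in mutant_2. Wild-type replicate 1 stood with the mutants, and the other wild-type libraries lay below all 8 of them. TOP2A changed by 0.58 (SE 0.51, adjusted p = 0.517), and by 1.53 without wild-type replicate 1 (adjusted p = 0.0361). Of 25 cyclin-dependent kinase inhibitors and p53 targets, 0 passed the edgeR test, with 2 higher and 4 lower at an unadjusted p under 0.05 and 0 by DESeq2.

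Among germ line and patterning genes, 5 of 31 cancer/testis antigen genes were expressed enough to be tested, and 1 was higher. BRDT, a testis bromodomain protein, stood at 13.8, 9.5, 11.4 and 15.9 CPM in wild type, 35.7, 37.6, 32.3 and 35 CPM in mutant_1 and 45.8, 38.6, 47.6 and 40.4 CPM in mutant_2. The groups did not overlap (log2 fold change 1.63, SE 0.16, adjusted p = 1.30e-04). Of 27 HOX genes, 0 passed the edgeR test, against 6 higher and 2 lower at an unadjusted p under 0.05 and 0 and 1 by DESeq2. HOXB9 was higher in mutant_2 (1.67, adjusted p = 5.47e-05) and stood at 0.05 in mutant_1. The 3 prostate luminal, 6 ovarian and 2 neuroendocrine marker genes that could be tested gave 0 calls by edgeR, with 0, 2 and 1 at an unadjusted p under 0.05 and 0, 0 and 1 by DESeq2.

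**Figure D3:**
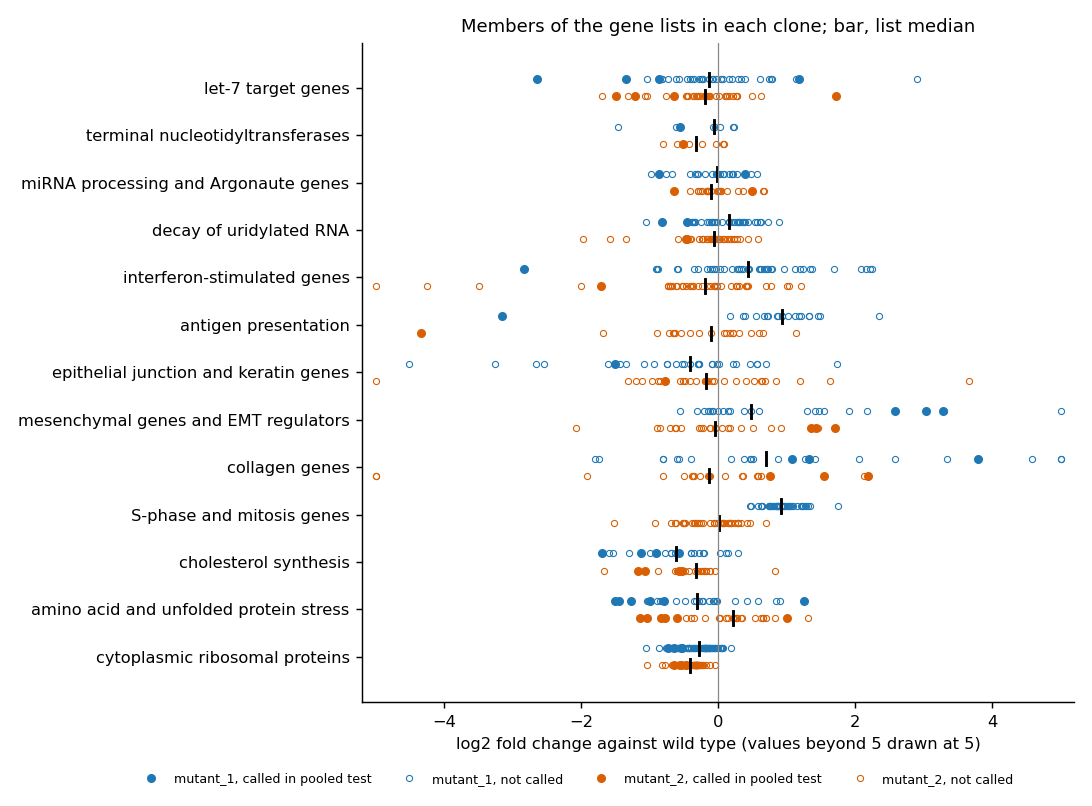
Log2 fold change against wild type of every tested member of 13 gene lists, in mutant_1 and mutant_2, with filled points for genes called in the pooled test and a bar at the list median. Interferon-stimulated, antigen presentation, collagen, mesenchymal, uridylated RNA decay, and S-phase and mitosis genes have medians above 0 in mutant_1 and lower medians in mutant_2. The medians of cholesterol synthesis, ribosomal protein, epithelial junction and keratin, let-7 target, terminal nucleotidyltransferase and miRNA processing genes are under 0 in both clones.

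Many of the lower genes lay next to each other in the genome. After the median change had been computed in 238 windows of 10 Mb with at least 20 tested genes, 5 blocks in which neighbouring windows were low in both clones were chosen by eye, so their values are a description with no test. Gene positions were taken from a GENCODE annotation of GRCh38 and could be found for 13420 of the tested genes. The 5 blocks held 1133 of those genes (8.44%), but 164 of the 340 lower calls with a position (48.2%) and 3 of the 171 higher ones. Outside the blocks 176 genes were lower (1.43%) and 168 were higher (1.37%) of 12287, so that the excess of lower over higher calls lay inside them.

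On chromosome 7 the long arm stood apart from the short arm. From 60 to 160 Mb, 64 of 421 tested genes were lower and the median change was -0.37, whereas from 0 to 50 Mb 1 of 201 was lower and the median was 0.08. On chromosome 8 the division was the other way round: from 10 to 50 Mb 28 of 148 genes were lower with a median of -0.73, and from 60 to 150 Mb 1 of 267 was lower with a median of 0.18. The blocks on chromosome 14 from 30 to 110 Mb (34 of 365 lower, median -0.24), chromosome 18 from 20 to 60 Mb (26 of 96, -0.61) and chromosome 21 from 30 to 50 Mb (12 of 103, -0.36) were alike in kind. Chromosome 20 from 30 to 70 Mb was not counted among the blocks, but its 4 windows also had medians under 0 in both clones, with 12 of 253 genes lower, 0 higher and a median of -0.22.

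In some blocks the clones stood at unlike levels. The chromosome 8 block had a median of -0.38 in mutant_1 and -1.31 in mutant_2, the chromosome 18 block of -0.40 and -0.87 and the chromosome 21 block of -0.58 and -0.24. The chromosome 14 block had -0.27 and -0.26 and the chromosome 7 block -0.39 and -0.45. Library by library, relative to the wild-type mean of log2(CPM + 0.5), the chromosome 8 block median lay between -0.02 and 0.01 in the wild type, -0.40 and -0.35 in mutant_1 and -1.29 and -1.20 in mutant_2. In the LIN28A-negative DU145 libraries, which have wild-type libraries of their own, the mutant medians were -0.72 for the chromosome 8 block, -0.67 for chromosome 18, -0.38 for chromosome 7, -0.26 for chromosome 14 and -0.44 for chromosome 21. Single clones had further steps, among them a median of -0.47 over chromosome 5 in mutant_2, -0.38 over chromosome 12 in mutant_1 and 0.31 over chromosome X in mutant_1. DNA copy number was not measured here. Of the called genes named above, COL18A1, CYP51A1, DICER1, DSC2, EGLN3, FAM167A, LSS, MTUS1, NRCAM, PDIA4 and SERPINA1 lie within the blocks, and COL18A1, EGLN3 and NRCAM among them were higher. RPS21 and ZNF512B lie on chromosome 20 from 30 to 70 Mb.

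**Figure D4:**
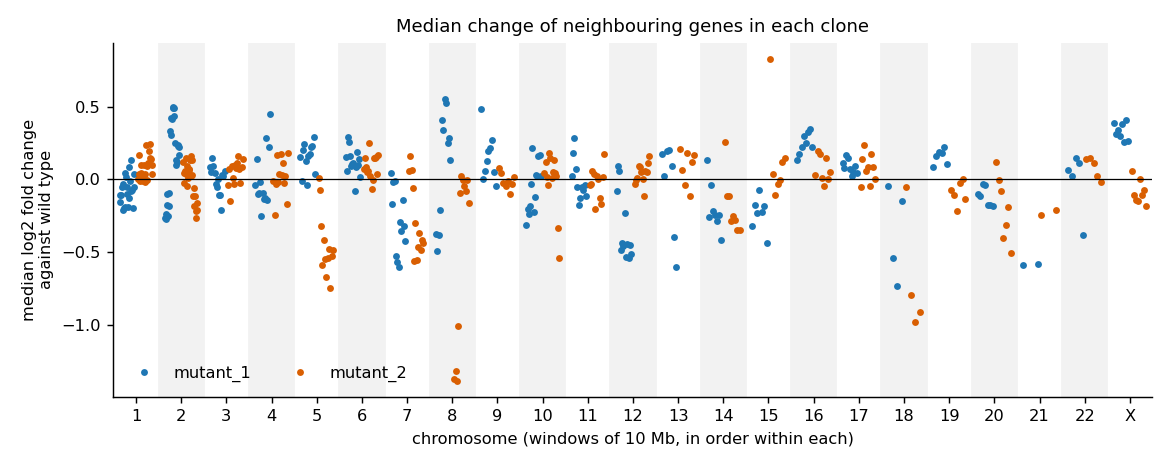
Median log2 fold change against wild type of the tested genes in each 10 Mb window with at least 20 of them, by chromosome, for mutant_1 and mutant_2. Runs of windows on chromosomes 7, 8, 14, 18, 20 and 21 lie under 0 in both clones, and runs on chromosomes 5 and 12 in 1 clone.

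The LIN28A-negative DU145 libraries allowed a test of whether the mutant effect differed between the overexpressing and the LIN28A-negative lines, written below as with and without LIN28A. The mutant effect, taken as the mean of the clones minus wild type, differed in 60 of 14561 genes: it was higher with LIN28A in 22 (0.151%) and lower in 38 (0.261%). Of these 60, 59 were called by DESeq2 as well and 60 without wild-type replicate 1, 24 were called in all 12 fits that left out 1 overexpressing library, and 3 (SYK, PCOLCE2 and CCL5) when the clones were pooled into 1 mutant group. The number of called genes was 259 without wild-type replicate 1 and 26 without wild-type replicate 2. The 24 libraries were scaled together here, so CPM values differ slightly from those above. By their labels, the LIN28A-negative clones were at passages 8 to 12 and their wild type at least 145 passages further on, while the 3 overexpressing groups were all at passages 1 to 4. In the LIN28A-negative arm passage number and mutation therefore cannot be told apart, which bears on each of the 60 genes. Only the overexpressing lines are described as transduced and selected with puromycin, and their LIN28A mRNA was higher in the clones than in the wild type. Transduction, selection and unequal transgene dose therefore cannot be told apart from LIN28A itself in any of the 60 genes.

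CCL5, a chemokine induced by interferon and NF-kB signalling, had the largest difference towards a lower mutant effect. With LIN28A it stood at 2.16, 1.66, 3.47 and 1.93 CPM in wild type, 2.32, 1.72, 2.62 and 1.94 CPM in mutant_1 and 2.19, 1.94, 1.38 and 1.85 CPM in mutant_2. Without LIN28A it stood at 0.453, 0.207, 0.187 and 0.246 CPM in wild type, 6.11, 8.43, 5.38 and 3.38 CPM in mutant_1 and 4.09, 4.64, 3.5 and 2.37 CPM in mutant_2. The overexpressing groups overlapped fully, while without LIN28A the wild type was lowest in every library. The mutant effect was -0.2 with LIN28A (adjusted p = 0.571) and 4.06 without it (adjusted p = 1.43e-08), a difference of -4.26 (SE 0.45, adjusted p = 9.13e-06).

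Of 46 interferon-stimulated genes, the difference passed the test in 3 (6.52%, against 0.261% of all genes), and all 3 were lower with LIN28A. Over the 46, the median mutant effect was 0.11 with LIN28A and 1.05 without it, the median difference was -0.78, and the median over all genes was close to 0 in each. With LIN28A 4 genes were higher and 6 lower (of all genes, 8.3% and 12.5%), and without it 26 were higher and 1 lower (of all genes, 9.13% and 12.5%). The clones went apart with LIN28A, the summed level being 1258 to 1528 CPM in wild type, 1571 to 2560 CPM in mutant_1 and 1102 to 1166 CPM in mutant_2. OASL, an oligoadenylate synthetase-like protein, was at 26.7 to 36.6 CPM in wild type, 15.9 to 29.1 CPM in mutant_1 and 24.6 to 41.9 CPM in mutant_2 with LIN28A. Without LIN28A it was at 9.7 to 26.2, 21.5 to 69.2 and 100.2 to 139 CPM, a difference of -2.24 (SE 0.37, adjusted p = 0.00249). IFIT2, a translation inhibitor that binds RNA, differed by -1.75 (SE 0.33, adjusted p = 0.0078) and ISG20, an exonuclease, by -1.15 (SE 0.23, adjusted p = 0.00883), but these 2 were called in only 2 of the 12 fits that left out 1 overexpressing library.

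HMGA2 was the let-7 target whose mutant effect differed most. With LIN28A, the wild type stood at 3.32 to 7.43 CPM, mutant_1 at 0.402 to 1.34 CPM and mutant_2 at 1.2 to 2.23 CPM. Without LIN28A, the wild type stood at 2.61 to 3.17 CPM, mutant_1 at 1.54 to 2.01 CPM and mutant_2 at 6.54 to 11.1 CPM. Both clones were below the wild type with LIN28A, whereas without it mutant_1 was below and mutant_2 above. The effect was -2.07 with LIN28A (adjusted p = 1.20e-07) and 0.39 without it (adjusted p = 0.227), a difference of -2.46 (SE 0.33, adjusted p = 2.73e-04) that held in all 12 fits that left out 1 library. It was not called with the clones pooled (adjusted p 0.22).

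IGF2BP3, whose 3′ UTR of 2153 bases on chromosome 7 (minus strand) holds 1 seed match, was the other let-7 target called, with a difference of -0.99 (SE 0.19, adjusted p = 0.00844) and a call in 2 of those 12 fits.
IGF2BP3 site, chr7:23311787-23311816: gcatttttactcaaCTACCTCaggtattca

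Its wild-type level was 35.8 to 62.1 CPM with LIN28A and 17.4 to 24.7 CPM without, and mutant_1 stood at 25.4 to 28.8 and 19.4 to 29.7 CPM, mutant_2 at 59.7 to 84.6 and 54.5 to 73.8 CPM. The wild type thus differed between the lines by more than either clone did. Of the 1399 genes with at least 1 let-7 seed match in the 3′ UTR, 1 was higher and 9 were lower in this test (0.643%), and of those without a match 0.215% were lower. The median difference was -0.013 with a let-7 match and -0.003 without. Lower shares with and without a match were 0.295% and 0.255% for miR-200c-3p and 0.262% and 0.263% for miR-141-3p. They were 0.175% and 0.283% for miR-30a-5p, 0.223% and 0.27% for miR-103a-3p and 0.162% and 0.274% for miR-21-5p.

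Genes whose mutant effect was higher with LIN28A included SYK, a tyrosine kinase. Of 31 epithelial junction and keratin genes, 2 were higher (ESRP1 and CLDN7, against 0.151% of all genes), and 12 had a difference below 0. The mesenchymal gene LOXL2 (0.94, adjusted p = 0.00222) and the collagen gene COL12A1 (1.07, adjusted p = 0.00986) were higher too. COL12A1 was called in 2 of the 12 fits that left out 1 overexpressing library. SYK stood with LIN28A at 1.76, 0.86, 1.81 and 1.93 CPM in wild type, 7.29, 7.17, 7.56 and 8.37 CPM in mutant_1 and 3.67, 4, 5.18 and 6.02 CPM in mutant_2. Without LIN28A it stood at 7.7, 8.07, 6.81 and 7.99 CPM, 7.43, 6.61, 8.38 and 5.07 CPM and 3.09, 4.08, 3.95 and 3.79 CPM. The 4 overexpressing wild-type libraries were the lowest of all 24 (2.51, SE 0.25, adjusted p = 9.13e-06). SCN9A, a voltage-gated sodium channel, differed by 3.3, with an effect of 1.75 with LIN28A and -1.55 without it (adjusted p = 1.19e-04). ESRP1, a regulator of epithelial splicing, differed by 2.94 (adjusted p = 4.60e-04), CLDN7, a tight junction protein, by 1.32 (adjusted p = 8.68e-04) and LAD1, a basement membrane anchoring protein, by 2.16 (adjusted p = 3.91e-05). For ESRP1, the overexpressing mutant_2 libraries at 10.1 to 14.6 CPM stood above the wild type at 0.491 to 1.93 CPM, while mutant_1 at 1.05 to 2.26 CPM overlapped it.

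HLA-DRA, an MHC class II chain, differed by 3.95 (SE 0.57, adjusted p = 4.95e-04), and here the change was in the LIN28A-negative arm, from 3.64 to 5.65 CPM in wild type to 0.154 to 1.25 and 0.0946 to 0.228 CPM in the clones, while the overexpressing libraries were at 0.176 to 0.831, 0.597 to 1.59 and 0.171 to 0.556 CPM. PCOLCE2, an enhancer of procollagen processing, moved in opposite directions: -0.64 with LIN28A and 1.16 without (difference -1.8, SE 0.19, adjusted p = 9.13e-06).

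**Figure D5:**
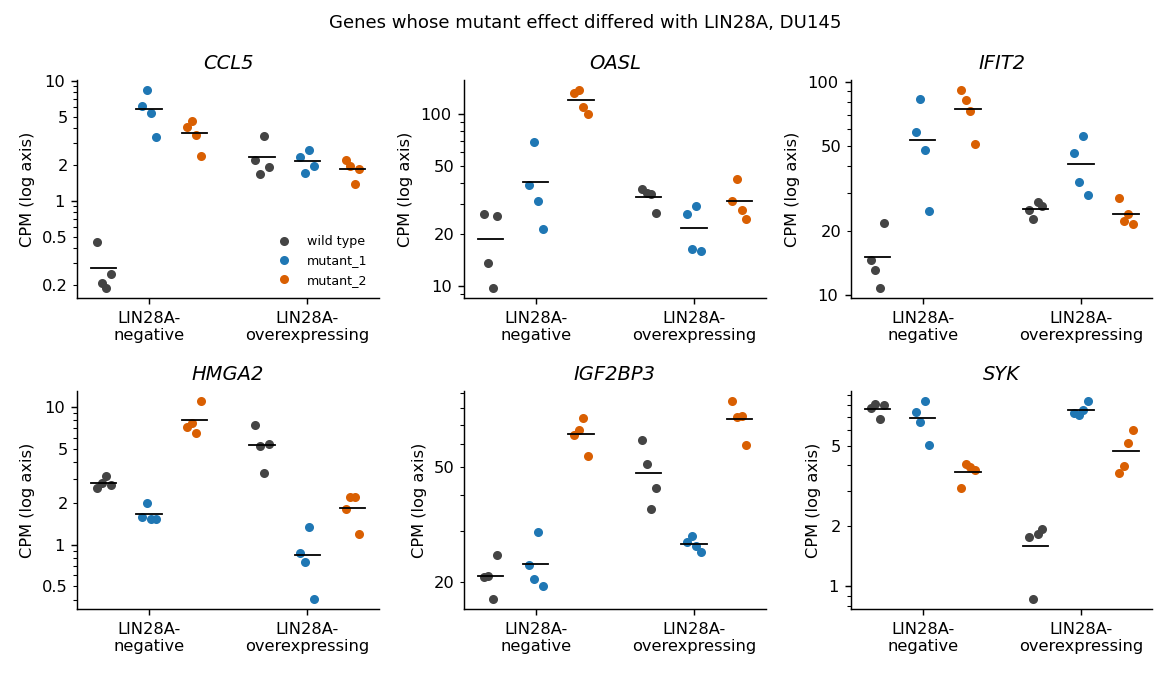
CPM (log axes) of 6 genes whose mutant effect differed with LIN28A, in the 4 libraries of each of the 6 DU145 groups, with the group mean as a line. For CCL5, OASL and IFIT2 the mutants lie above the wild type mainly among the LIN28A-negative libraries, for HMGA2 both clones lie below the wild type only with LIN28A, and for SYK the overexpressing wild type is lowest.

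Against IGROV1, the mutant effect in LIN28A-overexpressing DU145 was higher in 1865 genes (11.9%) and lower in 1867 (12%) of 15613 tested. By their labels, the IGROV1 wild type was at passages 6 to 9, mutant_1 at 2 to 5 and mutant_2 at 3 to 6. The largest differences by rule were of genes near 0 in 1 line or clone, so their fitted values depend on the prior count and are no bounds. In the overexpressing DU145 libraries, ARSD, an arylsulfatase, had 29 to 44 counts in wild type, 0 in each mutant_1 library and 0 to 1 in mutant_2. FLRT2, a leucine-rich adhesion protein, had 31 to 46 counts in wild type, 2 to 3 in mutant_1 and 0 in mutant_2. Both were lower in the pooled test (adjusted p = 6.20e-06 and 3.45e-04), and FLRT2 lies in the block of lower genes on chromosome 14. In contrast, OCIAD2 and PKP3, among the genes with a higher effect than in IGROV1, changed in these libraries by 0.03 and -0.34 (adjusted p = 0.933 and 0.198), so their difference lay in the IGROV1 clones.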

How the data were processed

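The 12 libraries were poly(A)-selected and strand-marked. Per the study's methods, the authors trimmed reads with Trimmomatic 0.39, removed ribosomal reads, aligned with HISAT2 2.1.0 to hg38 and deposited HTSeq read counts per gene (raw, not normalised). The annotation release, the HTSeq version and its strand setting are not given in the sources used here, so overlapping and antisense genes cannot be told apart. The 5 summary lines of each table were dropped.

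Counts were tested with edgeR 4.0.16 (R 4.3.3): TMM scaling, filterByExpr, quasi-likelihood F tests, Benjamini-Hochberg adjusted p under 0.01, two-sided. The SE is the log2 fold change divided by the root of F. The pooled test set 8 mutant against 4 wild-type libraries. Clones were fitted as 3 groups, and differences with LIN28A or from IGROV1 as 6 groups. DESeq2 1.42.0 was an alternative. On counts simulated for the pooled test over 14666 genes, 50% of genes changed by 1 log2 unit, 89.4% by 2 and 4.41% by 0.5 were recovered, with 0 false calls. For the difference with LIN28A, simulated over 14561 genes, these were 53%, 93.9% and 2.94%. In these simulations the libraries were drawn independently and both clones were given the same change, with no other difference between clones. They therefore cannot show how many calls arise from a property of a clone.

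Genes named were TUT4, TUT7, LIN28A and LIN28B, the 12 largest called changes each way with a mean of at least 5 CPM and no overlap between groups, the 2 largest called changes each way in each gene list (the most abundant member where none was called), and 6 per direction in each test of difference; a few of these are not reported here. Other members were named where a list's count was 5 or fewer, and these, like BCHE's use as an example, were chosen after their values were seen. The members and gene lists were chosen with earlier results of these data known. Seed matches were searched in the 3′ UTR of 1 GENCODE transcript per gene.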

Additional observations from a re-analysis of the deposited data

Results flagged for a closer look

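In 219 groups of 4 values, 1 library stood apart from the other 3 by Dixon's criterion in 17, where chance alone would give about 1 in 20, and 5 of the 17 were wild-type replicate 1. That library held TOP2A at 1044 CPM (others 176 to 247), BMPER at 3.08 CPM, LINC00667 at 14.9 CPM, SERPINA1 at 40.4 CPM and LSS at 144 CPM. In mutant_1, replicate 3 stood apart for CD74 at 2.71 CPM, SERPINA1 at 9.25 CPM, F2RL2 at 34.5 CPM and BCHE at 0 CPM, and replicate 1 for DHX58 at 1.21 CPM. In mutant_2, the values were TUT4 at 60.3 CPM and ARSD at 0.0698 CPM (1 count) in replicate 3, RLTPR at 2.15 CPM and CSF1 at 352 CPM in replicate 4, and MFAP2 at 8.29 CPM and OCIAD2 at 40.6 CPM in replicate 1. SYK stood at 0.869 CPM in wild-type replicate 2.

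The clones differed from each other in several of the targeted genes and of the largest pooled changes. Mutant_1 minus mutant_2 came to -1.5 on the log2 scale for TUT4, which the pooled test did not call, and -0.52 for TUT7, and to 0.66 for LIN28A. It was 1.8 for ADM, 1.61 for FSTL1, 1.23 for FBN1, 1.05 for INPP4B, 1.92 for LINC00667 and 0.97 for EDIL3. It was -1.04 for NRCAM, -1.4 for MTUS1, -1.43 for F13A1 and -0.59 for LMO7.

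The mutant effect was higher with LIN28A than without it by 3.3 for SCN9A, 2.51 for SYK, 1.53 for TMEM170B, 1.41 for ARMCX2 and 1.32 for CLDN7 on the log2 scale. It was lower with LIN28A, the difference being -2.24 for OASL, -2.11 for CLIC2, -1.98 for SLCO2B1, -1.86 for F2RL2, -1.86 for EFR3B and -1.8 for PCOLCE2.

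Against IGROV1, the effect in overexpressing DU145 differed by 11.9 for MMP7, 11.27 for MFAP2, 11.03 for OCIAD2, 10.6 for ARMCX5, 9.47 for BMP2 and 9.43 for PKP3. In the other direction the values were -13.96 for OLFM1, -8.33 for FLRT2, -7.79 for BCHE, -7.36 for MGC12916, -7.29 for ARSD and -7.27 for HS3ST3B1. These are fitted values of genes near 0 in some libraries, and they depend on the prior count.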

How the results depend on the processing

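Against the pooled counts of 178 higher and 367 lower genes (97 and 123 by at least 1 log2 unit), an adjusted p under 0.05 gave 656 and 907 (249 and 220), DESeq2 595 and 829 (263 and 219), the mean of the clones in a 3-group fit 1082 and 1703 (353 and 435), mutant_1 alone 1134 and 1541 (553 and 654), mutant_2 alone 1303 and 1201 (635 and 458) and the fit of all 24 DU145 libraries 1209 and 1824 (374 and 465). Leaving out 1 library gave 67 to 227 higher and 152 to 441 lower (50 to 117 and 67 to 174 by at least 1 log2 unit). With the replicate number as a block (replicate block) the counts were 98 and 203 (64 and 74). The numbers are passages with no stated pairing: 10 of 12 same-number correlations exceeded 0.1, the lowest was -0.24, and 5 libraries correlated best with their own number. The named genes losing their call with the block were ADM, FSTL1, FBN1, INPP4B, LINC00667, MTUS1, F13A1, TENT4B, HMGA2, PRKRA, EDC3, DSC2, PDGFRB, COL3A1, STC2, HSP90B1, RPS25, CLIC2, PCOLCE2 and MFAP2. With replicates 1 and 2 only, or 3 and 4 only, edgeR called 0 and 0 genes (0 and 0 by at least 1 log2 unit), with 1395 and 2811 at an unadjusted p under 0.05 and, by DESeq2, 71 higher and 88 lower with the former and 311 and 424 with the latter.

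The 3811 calls in mutant_1 became 5937 at an adjusted p under 0.05, 397 with replicates 1 and 2 only and 3006 to 5539 without 1 library. The 3216 calls in mutant_2 became 5084, 383 and 2379 to 3819. The 60 genes differing with LIN28A became 263 at an adjusted p under 0.05, 219 by DESeq2, 3 with the clones pooled and 26 to 259 without 1 library. With replicates 1 and 2 only they were 0 (893 at an unadjusted p under 0.05, 34 by DESeq2) and with 3 and 4 only 0 (1839 and 129). The 3732 genes differing from IGROV1 became 1991 with replicates 1 and 2 only, 1889 with 3 and 4 only, 1776 with the clones pooled and 3236 to 4348 without 1 library. The causes were not tested, but sets of fewer libraries leave fewer residual degrees of freedom by construction.

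Of 1274 alternative values for 75 named genes, 1087 kept their side of the threshold and direction, 171 lost the call, 14 gained one and 2 reversed: MUC16 at -3.94 with mutant_1 only and TIMP2 at -0.58 with mutant_2 only, neither called in the pooled test. None of the 54 called named genes reversed. The number of them losing the call was 0 with DESeq2, 0 with relative log expression scaling, 20 with the replicate block, and 7, 24, 23 and 19 without wild-type replicates 1, 2, 3 and 4. Genes at a few counts per library, such as ARSD and FLRT2, are limited by depth.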
